A study of Homo sapiens with 18 samples.

Results

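SCC1, SCC6 and SCC25, established human lines of head and neck squamous cell carcinoma, were profiled by ATAC-seq after 5 days with cetuximab at 100 nM, an antibody that blocks the epidermal growth factor receptor (EGFR), or with PBS as the untreated control. Each line and treatment had 3 libraries here, except that SCC1 PBS had 2, since its replicate 2 was not analysed here. Reads in regions ranged from 2194851 to 15017130 a library, with the most in SCC6 cetuximab replicate 3, and whether replicates were separate cultures is not stated, so p-values measure the spread between these libraries. The regions described here are those open in SCC6 only, called SCC6-only regions below. They were chosen by measured values, the peak lists: a region of the deposited table was taken when it overlapped by at least 1 base a peak in 3 or more of the 6 SCC6 lists and no peak in the 11 lists of SCC1 and SCC25. This selected 26234 of 115087 regions (22.8%), or 39.1% of the 67055 regions with a peak in at least 3 SCC6 lists. The same rule found 9245 regions (8.03%) for SCC25 and 614 (0.534%) for SCC1. Each line is a single line, so what is particular to SCC6 and what is particular to the tumour type cannot be told apart.

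ATAC-seq uses the Tn5 transposase, which inserts sequencing adapters where DNA is free of nucleosomes. Open regions near a transcription start site are usually promoters, which tend to be rich in GC and open in many cell types. Open regions far from start sites include enhancers, which differ most between cell types and carry binding sites of factors such as AP-1, the FOS and JUN family that acts downstream of EGFR and ERK signalling. Squamous cells depend on EGFR for growth, and cetuximab blocks that input.

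The sequences of 8 SCC6-only regions are shown because they mark the extremes described below. All are on the plus strand of hg19, 5′ to 3′, in lower case, with any AP-1 site (TGANTCA on either strand) in capitals. The first 3 are whole regions of 200 bases near NR5A2, ATP11B and PCDH7, among the 8 with the highest signal in SCC6. The other 5 are the central 200 bases of wider regions: the one with the highest signal (near PGR), one near BIRC3, the one with the smallest adjusted p for a rise with cetuximab (near MMP13), and 2 of the 6 with the smallest adjusted p for a fall (EDN2 and BRINP2).
NR5A2 region, chr1:199648656-199648855: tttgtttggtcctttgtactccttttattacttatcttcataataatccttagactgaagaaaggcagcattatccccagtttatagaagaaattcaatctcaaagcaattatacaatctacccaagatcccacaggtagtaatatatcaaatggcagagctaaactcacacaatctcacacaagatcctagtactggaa
ATP11B region, chr3:182324313-182324512: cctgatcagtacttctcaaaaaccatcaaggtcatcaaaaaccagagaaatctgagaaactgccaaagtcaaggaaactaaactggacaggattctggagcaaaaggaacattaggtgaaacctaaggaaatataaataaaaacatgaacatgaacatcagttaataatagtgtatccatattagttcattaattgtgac
PCDH7 region, chr4:30811859-30812058: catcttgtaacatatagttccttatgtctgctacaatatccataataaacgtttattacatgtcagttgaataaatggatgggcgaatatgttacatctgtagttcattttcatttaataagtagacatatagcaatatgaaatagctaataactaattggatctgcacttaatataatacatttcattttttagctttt
PGR region, chr11:101217401-101217600: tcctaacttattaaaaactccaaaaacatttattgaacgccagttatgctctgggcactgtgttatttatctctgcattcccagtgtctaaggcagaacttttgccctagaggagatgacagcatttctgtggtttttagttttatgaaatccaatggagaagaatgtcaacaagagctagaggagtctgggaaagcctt
BIRC3 region, chr11:102157025-102157224: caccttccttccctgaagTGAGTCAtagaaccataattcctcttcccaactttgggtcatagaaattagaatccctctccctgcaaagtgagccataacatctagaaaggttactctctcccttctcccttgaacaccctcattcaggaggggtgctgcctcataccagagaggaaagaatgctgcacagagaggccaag
MMP13 region, chr11:102878424-102878623: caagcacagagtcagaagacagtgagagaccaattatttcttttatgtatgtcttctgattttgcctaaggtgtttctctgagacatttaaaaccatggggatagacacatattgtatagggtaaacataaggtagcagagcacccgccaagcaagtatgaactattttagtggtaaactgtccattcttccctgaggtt
EDN2 region, chr1:41980928-41981127: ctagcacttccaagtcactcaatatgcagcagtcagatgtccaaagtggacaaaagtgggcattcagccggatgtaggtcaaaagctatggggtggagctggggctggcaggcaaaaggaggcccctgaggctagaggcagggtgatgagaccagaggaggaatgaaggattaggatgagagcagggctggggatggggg
BRINP2 region, chr1:177189056-177189255: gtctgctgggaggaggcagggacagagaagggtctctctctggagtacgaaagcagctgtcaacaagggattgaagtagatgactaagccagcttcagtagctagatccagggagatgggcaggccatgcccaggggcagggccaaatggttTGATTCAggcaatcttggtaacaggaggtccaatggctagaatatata
The NR5A2, ATP11B and PCDH7 regions hold 35%, 34% and 27% G and C and no AP-1 site. The BIRC3 and BRINP2 windows hold 48.0% and 52.0% G and C, each with 1 AP-1 site.

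The SCC6-only regions fell into a large narrow class and a smaller wide class. Of the 26234 regions, 15565 (59.3%) were between 199 and 201 bases wide, against 1.02% of SCC25-only regions and 15.8% of all regions. Read the other way, 85.9% of the 18130 regions of 199 to 201 bases in the table were SCC6-only. Peaks of that width made up 10.8% to 16.8% of each of the 6 SCC6 lists and 1.02% to 1.26% of each of the 11 other lists, so the difference lay in the lists of every library of the line. Below, the 20601 regions of up to 201 bases are called narrow and the 5633 over 201 bases wide. The cut is the most common width of the regions, and this split was made after the widths were seen.

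**Figure D1:**
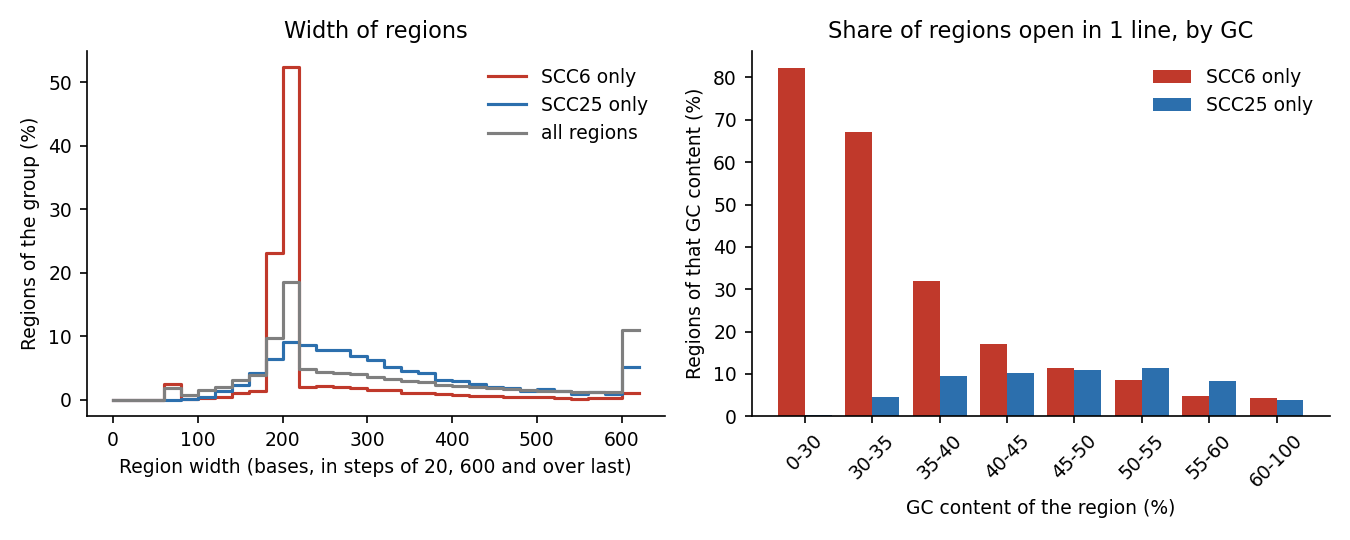
Left, the share of regions (y axis, %) at each width (x axis, bases, in steps of 20, with 600 bases and over in the last step) for SCC6-only, SCC25-only and all regions. Right, the share of all regions of a GC content (x axis, %) that were SCC6-only or SCC25-only (y axis, %). The SCC6-only regions pile up at about 200 bases, and their share falls from 82.2% below 30% GC to 4.22% at 60% GC and over.

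The SCC6-only regions were poor in G and C. Their median GC content was 34.8% (quartiles 29.4% and 41.9%), against 46.5% for SCC25-only regions and 45.9% for all regions. Of the 8879 regions below 30% GC, 7302 (82.2%) were SCC6-only, and these were 99.6% of the regions of that GC content with a peak in at least 3 SCC6 lists. At 60% GC and over, 738 of 17470 regions (4.22%) were. For SCC25-only regions the share ran the other way at low GC, with 0.293% below 30% and 11.5% between 50% and 55%. As a measure of a GC trend between libraries of the lines, regions with a peak in all 17 lists had a median log2 difference of SCC6 minus SCC25 of -0.09 at 35% to 40% GC and 0.24 at 60% and over. This measure cannot reach lower GC: 0 regions below 30% and 9 at 30% to 35% had a peak in all 17 lists. In those 2 ranges lay 7302 and 6036 of the SCC6-only regions, so a GC trend there was not measured. The narrow class had a median GC of 32.5%, the regions of 202 to 400 bases 45.5% and those over 400 bases 45.6%.

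Few SCC6-only regions lay near a transcription start site. Only 834 (3.18%) were within 1 kb of a transcription start site of a protein-coding gene, against 13.5% of all regions and 4.40% of SCC25-only regions. The median distance was 63.0 kb, against 36.4 kb for all regions, and 10658 (40.6%) were over 100 kb away. Introns of protein-coding genes held 40.1%, intergenic sequence 37.1%, non-coding genes 16.4%, non-coding exons 3.50% and coding exons 2.84%. The share within 1 kb was 1.59% in the narrow class, 7.39% at 202 to 400 bases and 14.1% over 400 bases.

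AP-1 sites were less frequent in the SCC6-only regions than in the rest of the table. The motif TGANTCA was in the central 200 bases of 2724 (10.4%), against 41.5% of SCC25-only, 20.5% of SCC1-only and 26.6% of all regions. Within 30% to 40% GC the shares were 8.94% of SCC6-only regions (n = 11077), 51.6% of SCC25-only regions (n = 1864) and 40.9% of the remaining ones (n = 13426). At 40% to 50% GC they were 16.4%, 47.6% and 42.8%. The share was 7.61% in the narrow class, 23.6% at 202 to 400 bases and 10.8% over 400 bases, where all regions of the table had 19.1%.

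Of the other 17 motifs searched, some were more and some less frequent in the SCC6-only regions than in the whole table. The homeobox core TAATTA was in 12.2% (5.78% of all regions) and the GATA motif AGATAA in 5253 regions (12.7% of all regions). The KLF and SP motif GGGCGG was in 2.77% (12.4%), the CTCF-like CNAGNNGGC in 5.19% (13.7%) and the TFAP2 motif GCCNNNGGC in 3.05% (8.55%). Among regions of 30% to 40% GC the shares of SCC6-only and remaining regions were 21.6% and 21.6% for GATA, 12.1% and 9.42% for homeobox, 0.460% and 0.514% for KLF and SP, 2.75% and 3.75% for CTCF-like, and 1.06% and 1.80% for TFAP2. The RUNX motif TGTGGT (12.6% and 21.1%) and the TEAD motif GGAATG (11.8% and 19.8%) were, like TFAP2, less frequent in SCC6-only regions at that GC content. At 40% to 50% GC the shares were 24.6% and 22.6% for TEAD, 20.6% and 21.8% for RUNX, and 4.50% and 4.52% for TFAP2. For the SNAI and ZEB E-box CACCTG the shares at 30% to 40% GC were 7.17% and 6.90%, for ETS (CCGGAAG) 0.190% and 0.186%, for FOX (TGTTTAC) 4.05% and 5.61%, for SOX (ACAATG) 14.9% and 18.5%, for POU (ATTTGCAT) 2.46% and 2.21%, for STAT (TTCNNNGAA) 8.32% and 9.25%, for C/EBP (TTGCNNAA) 14.2% and 16.7%, for the NRF2-like TGACNNNGC 3.81% and 7.21%, for the p53 family (ACATGTC) 1.98% and 3.13%, and for CRE (TGACGTCA) 0.0451% and 0.0745%. These are matches of letters on either strand. The NRF2-like, CRE and AP-1 letters overlap each other.

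The signal at SCC6-only regions was moderate in SCC6 and near the lowest value of the table elsewhere, as their choice would give. The deposited signal is a number of reads, with 0 set to 1, times 1 scaling step per library. The median signal over the 26234 regions was 26.8 to 37.4 in the 3 SCC6 cetuximab libraries, 22.7 to 24.2 in the 3 SCC6 PBS libraries, and 0.721 to 1.95 in the 11 other libraries. Over all regions the medians were 22.5 to 24.2 in SCC6 cetuximab and 20.5 to 20.7 in SCC6 PBS, and the regions with 3 SCC6 lists that also had a peak in another line had a median SCC6 signal of 58.4, against 28.6 for the SCC6-only ones. The median log2 difference was 2.67 from SCC1 and 2.80 from SCC25, where all regions had -0.011 and 0.034. Every SCC6 library was above every other library in 16623 (63.4%), against 19.1% of all regions. Because the peaks of these libraries chose the regions, these values are a description.

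Not every region chosen by its peaks held reads in the table. At 1799 (6.86%) the table gave no more than 1 read in each of the 6 SCC6 libraries, although 3 or more SCC6 lists had a peak there, with a median fold enrichment over background of 4.18 (4.05 over all SCC6-only regions). At 3295 (12.6%) no SCC6 library had more than 5 reads. Of all regions, 5946 (5.17%) were at 1 read in each SCC6 library. The mean signal of SCC6 was at or below that of SCC1 at 4014 (15.3%) and at or below that of SCC25 at 3084 (11.8%). For these regions the table does not bear out the name, and why the table and the lists differ was not tested. The count was 22939 after leaving out those with no more than 5 reads.

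The number of SCC6 lists behind a region went with its signal. A peak was present in 3 lists at 6220 regions, in 4 at 5325, in 5 at 6225 and in all 6 at 8464, with median SCC6 signals of 20.9, 25.4, 32.3 and 43.4. The 8119 regions with a peak in only 2 SCC6 lists and none elsewhere, which the rule left out, had 14.7. Just inside the rule, the 3-list regions with the highest signal were in an intron of PCDH7 (mean 613), in a non-coding exon of YAP1 (202) and near TRPC6 (185). Just outside it, the 2-list regions with the highest signal were 2 in introns of TMEM123 (171 and 169.6) and 1 in an intron of ANO10 (132).

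Squamous identity was checked at promoters. Of 8 squamous markers, 6 had a promoter peak in at least 3 SCC6 lists, among them TP63, CDH1 and PERP, while KRT14 and DSG3 had none in any SCC6 list. Of 6 fibroblast markers 2 had one (COL1A1 and DCN), and of 4 leukocyte and 4 endothelial markers 0 had one. The DCN promoter, with peaks in all 6 SCC6 lists and no other, was itself an SCC6-only region, with a mean signal of only 2.48 in SCC6.

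The regions with the highest signal included narrow and wide ones. The highest lay 217 kb from PGR, the progesterone receptor gene (chr11:101217253-101217747, 495 bases, intergenic). Its signal was 1782, 1793 and 1422 in SCC6 cetuximab replicates 1 to 3, 884, 813 and 845 in SCC6 PBS replicates 1 to 3, and 3.13 to 33.7 in the other libraries. The treated and untreated SCC6 libraries did not overlap, and the log2 change was 0.97 (SE 0.07, adjusted p = 2.2e-12, limma).

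A region 20.8 kb from CFAP300, a gene of cilia (chr11:101896489-101897353), had 977, 1003 and 934 with cetuximab and 492, 529 and 531 with PBS. Its log2 change was 0.91 (SE 0.07, adjusted p = 1.7e-15, limma), again with no overlap. One between YAP1 and BIRC3, an inhibitor of apoptosis (chr11:102156898-102157351, 30.9 kb from BIRC3), had 720.3, 715 and 608 against 477, 414 and 484, a log2 change of 0.57 (SE 0.08, adjusted p = 1.0e-07, limma).

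The wide region at the start of L3MBTL1, a chromatin-binding Polycomb relative (chr20:42142480-42143273), went the other way. It had 537, 576 and 569 with cetuximab and 784, 683 and 692 with PBS, without overlap (log2 change -0.36, SE 0.07, adjusted p = 8.5e-05, limma). This call was lost in 3 of 19 other settings, with a change as small as -0.10 and an adjusted p of up to 0.545.

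The other 4 of the 8 highest were narrow, with a signal of 0.377 to 8.93 in the libraries of SCC1 and SCC25. The NR5A2 region (chr1:199648656-199648855), 348 kb from that nuclear receptor gene, had 905, 778 and 472 in SCC6 cetuximab replicates 1 to 3 and 665, 487 and 623 in SCC6 PBS replicates 1 to 3. The ATP11B region (chr3:182324313-182324512) had 783, 756 and 373 against 704, 524 and 608. The PCDH7 region (chr4:30811859-30812058), in an intron of that protocadherin gene, had 902, 762 and 436 against 581, 450.3 and 547. The PLCL1 region (chr2:199173832-199174030) had 789, 721 and 335 against 652, 451 and 547. In all 4 the 2 groups overlapped and SCC6 cetuximab replicate 3, the most deeply sequenced library, was lowest of the 6 libraries. None was called by limma, with adjusted p of 0.604, 0.989, 0.473 and 0.903.

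**Figure D2:**
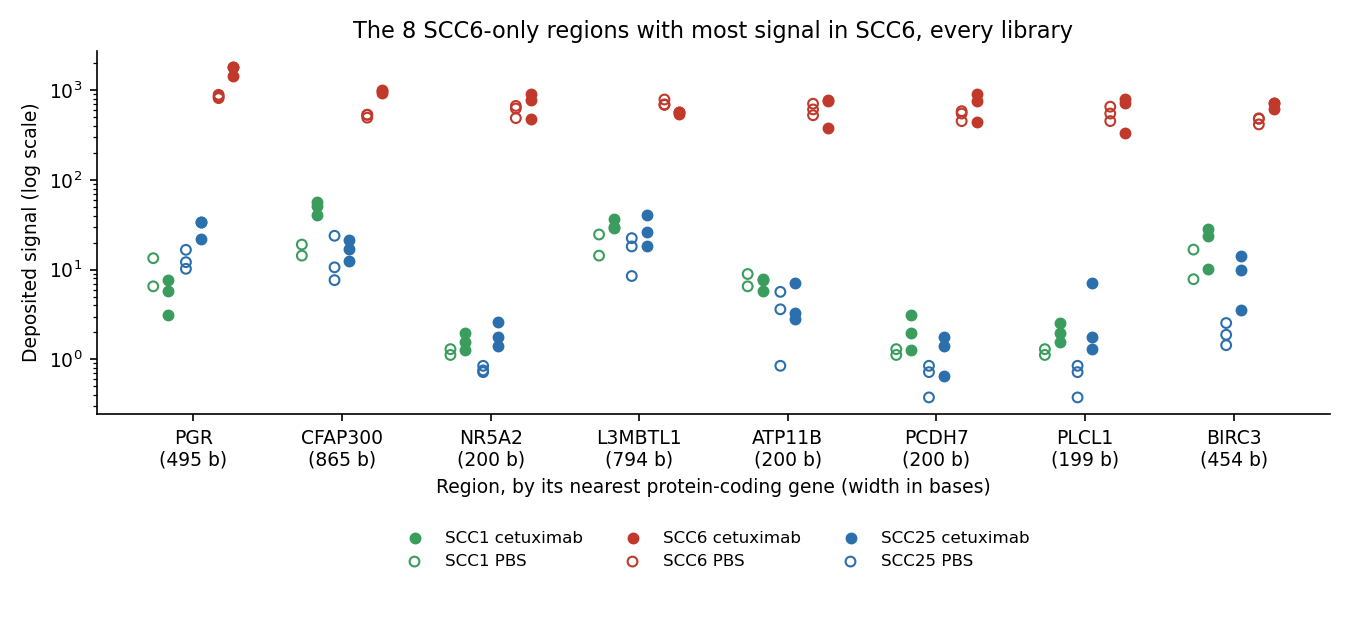
The deposited signal (y axis, log scale) in each of the 17 libraries at the 8 SCC6-only regions with the highest mean signal in SCC6, named by the nearest protein-coding gene with the width in bases. Filled points are cetuximab and open points PBS, 1 point a library. The lowest SCC6 point is 335 (PLCL1) and the highest point of the other lines is 56.4 (CFAP300).

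Chromosome 11 between 100 and 103 Mb held many of the strongest regions. This stretch contains YAP1, the coactivator of TEAD factors that the Hippo pathway restrains, BIRC2 and BIRC3, inhibitors of apoptosis, and a cluster of matrix metalloproteinase genes. It held 103 SCC6-only regions, 27 of the 100 with the highest signal, with a median SCC6 signal of 107 against 28.6 for all SCC6-only regions. Of the 103, 68.0% were wide. The 189 other regions there were also higher in SCC6, with medians of 166 in SCC6, 31.4 in SCC25 and 15.0 in SCC1. In the window from 102 to 103 Mb, which with 52 had the most SCC6-only regions of any of 2879 windows of 1 Mb (median 9 over the 2856 windows with one), the 59 regions open in both SCC6 and SCC25 had a median log2 difference of 2.86. In the next, from 100 to 101 Mb, 28 of 89 regions were SCC6-only, 25 of them nearest ARHGAP42, and the 47 shared regions had 1.98. DNA copy number was not measured, so more copies and more open chromatin cannot be told apart there.

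The BIRC2 promoter (chr11:102218647-102219069) belonged to this stretch. It had 462, 458 and 396 with cetuximab and 377, 360.0 and 419.8 with PBS, groups that overlapped, and 20.7 to 51.6 in the other lines (log2 change 0.18, SE 0.09, adjusted p = 0.101, limma). A non-coding exon of YAP1 (chr11:102100952-102101200), with peaks in the 3 cetuximab lists only, had 295, 262 and 272 against 123, 109.7 and 148 (log2 change 1.12, SE 0.12), a description, since the treated libraries chose it. The third window, on chromosome 19 from 53 to 54 Mb, was a zinc finger gene cluster with ZNF83, ZNF665 and ZNF611, where 25 of 48 regions were SCC6-only and the 18 shared regions had a median log2 difference of 0.61 from SCC25.

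Zinc finger genes, many of which encode repressors with a KRAB domain, recurred among the promoters. Of the 10 SCC6-only regions within 1 kb of a start site with the highest signal, 6 were at such genes, and 4 of these lay close together on chromosome 19. The ZNF471 promoter (chr19:57018887-57019603) had 407, 354 and 349 with cetuximab and 445, 419.5 and 398 with PBS in SCC6, against 1.12 to 10.1 in the 11 other libraries. The ZFP28 promoter (chr19:57049616-57050557) had 382, 372 and 360.0 against 356, 393 and 404, with 1.77 to 19.5 elsewhere. The ZNF470 promoter (chr19:57078415-57079197) had 295, 324 and 288 against 288, 304 and 306, with 1.77 to 33.1 elsewhere. At ZNF583 (chr19:56915189-56915866) the SCC6 libraries had 227 to 311 and the others 3.35 to 30.1. In these 4 promoters every SCC6 library stood far above every other library, and none was called between cetuximab and PBS (limma, adjusted p 0.0981, 0.700, 0.919 and 0.122).

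ZNF736 on chromosome 7 (chr7:63774106-63774741) had 379.5 to 452 in SCC6, 21.9 to 37.7 in SCC1 and 1.77 to 4.22 in SCC25. ZNF695 on chromosome 1 (chr1:247170945-247171601) had 283, 308 and 309 with cetuximab and 356, 363 and 439 with PBS, with no overlap, a log2 change of -0.36 (SE 0.09, adjusted p = 0.00304, limma). This call was lost in 4 of 19 other settings, with a change as small as -0.10 and an adjusted p of up to 0.634. Counted after these were seen, 65 of the 834 promoter regions (7.79%) were at genes named ZNF, ZFP, ZSCAN or ZKSCAN, 49 of them on chromosome 19, against 518 of all 15528 promoter regions (3.34%) and 5 of the 407 SCC25-only ones (1.23%). In the 65, the median signal was 54.7 in SCC6, 5.62 in SCC25 and 6.30 in SCC1, and 61 could be tested with cetuximab, of which 3 were called higher and 3 lower. On chromosome 19, the 94 regions with a peak in all 17 lists also tended to be higher in SCC6. Their median log2 difference was 0.82 from SCC25 and 0.57 from SCC1. DNA copy number was not measured, so more copies and more open chromatin cannot be told apart on this chromosome.

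The remaining promoters of the 10 were CBLN1, a synaptic organiser, and FREM2, a basement membrane protein. CBLN1 (chr16:49315711-49316494) had 264 to 346 in SCC6 and 1.95 to 17.7 in the other libraries. FREM2 (chr13:39260289-39261415) had 240.3 to 284 in SCC6 and 5.62 to 23.4 in SCC25 but 66.4 to 117 in SCC1, where no list had a peak. Neither was called with cetuximab (adjusted p 0.308 and 0.609, limma). Over the 834 promoter regions the median signal was 38.0 in SCC6, 9.50 in SCC25 and 11.9 in SCC1, 507 were wide, and 55 had no more than 5 reads in any SCC6 library.

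Genes of neuronal adhesion had the most SCC6-only regions around them. The 6 genes nearest to the most were PCDH7 (61 of its 125 regions), ADGRL3 (59 of 107), SLITRK5 (54 of 97), LRRC4C (52 of 93), CADM2 (48 of 81) and PCDH9 (47 of 107), all coding for cell surface proteins of neurons and all lying in long stretches poor in genes. Over the list of 43 neuronal adhesion and channel genes, each had at least 1, and 748 of their 1781 regions (42.0%) were SCC6-only, the highest share of the 17 gene lists. Of all regions, 22.8% were SCC6-only. The SCC25-only share was 7.30% there and 8.03% of all regions. By GC content alone, the SCC6-only share was 82.2% below 30% and 67.1% at 30% to 35%. The strongest regions of the 6 genes above held 20.2% to 36.5% GC, and the lists were not compared at equal GC content. The strongest regions of these genes were narrow and distal: that of LRRC4C (chr11:40068993-40069192), with 29.5% GC, had 232, 185 and 130.3 with cetuximab and 122, 124 and 128 with PBS. That of SLITRK5 (chr13:87955142-87955342) had 173, 162 and 111 against 88.2, 92.3 and 107. That of CADM2 (chr3:84281843-84282040) had 171, 148 and 86.9 against 108, 81.0 and 79.4. SCC6 cetuximab replicates 1 and 2 were above all PBS libraries in each, replicate 3 was above them in LRRC4C and SLITRK5 only, and limma called each higher (log2 change 0.51, 0.61 and 0.55, adjusted p 0.00922, 0.00333 and 0.0263). These 3 calls were lost in 5, 2 and 9 of 19 other settings, where the adjusted p reached 0.442, 0.335 and 0.535. The strongest region of ADGRL3 (chr4:61490403-61490602) had 172, 156 and 92.9 against 99.1, 102 and 96.8, groups that overlapped, and its call (log2 change 0.45, adjusted p = 0.0442, limma) was lost in 12 of 19 settings. Those of PCDH9 (chr13:68722519-68722718; 202, 140.2 and 117 against 123, 125 and 97.9) and PCDH7 were not called (adjusted p 0.0726 and 0.473, limma).

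By chromosome the share of regions that were SCC6-only ran from 16.0% on chromosomes 16 and 17 to 33.0% on chromosome 21, with 31.4% on X and 30.9% on 13. At least 1 SCC6-only region was nearest to 8609 of the 16904 protein-coding genes with a region (50.9%), with a median of 2 a gene.

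Genes of pathways linked to the response to EGFR blockade differed in the share of their regions that were SCC6-only, from 11.9% to 28.4%, where the whole table had 22.8%. The share was 25.3% for receptor tyrosine kinases (177 of 700), 28.3% for growth factor ligands (117 of 413), 21.5% for ERK output and feedback genes (100 of 466), 19.9% for TGF-beta and BMP genes (126 of 634), 16.3% for WNT genes (66 of 406), 15.8% for AP-1 and related genes (33 of 209) and 11.9% for the receptors that the study names under TFAP2A (15 of 126). It was 22.4% for mesenchymal genes of EMT (96 of 429), 15.4% for epithelial and squamous genes (59 of 384), 23.3% for integrins and laminins (67 of 287) and 28.4% for matrix metalloproteinases (62 of 218). Lineage factors of other tissues had 22.7% (213 of 940), HOX genes 14.5% (8 of 55), cytokines and chemokines 16.2% (26 of 160), cell cycle genes 15.2% (32 of 211) and antigen presentation and checkpoint genes 12.1% (8 of 66).

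The comparison of cetuximab with PBS asked which regions change within 5 days of EGFR blockade. The choice of regions did not use this contrast directly, but 3 lists can all come from treated libraries. The treated SCC6 lists held 61122 to 101272 peaks and the untreated ones 47441 to 66383, ranges that overlap. The longest list was that of SCC6 cetuximab replicate 3, the most deeply sequenced library. Of the regions, 2622 had peaks in all 3 cetuximab lists and no PBS list, and 91 the reverse. Such regions passed the rule only through the group in which they are high, so their change is set by their choice. A filter on the lowest 25% of mean signal left 20967 (79.9%) to test in SCC6. limma called 4602 higher with cetuximab (21.9%; 16.9% of all 86315 regions tested) and 722 lower (3.44%; 10.6% of all). The 2622 supplied 1463 of the higher calls (68.5% of the 2135 tested, and 0 lower by limma), and the 91 supplied 75 of the lower ones. Among the 23521 regions with peaks in lists of both treatments, a count made after seeing the data, 3137 of 18746 were higher (16.7%) and 647 lower (3.45%), a share of higher calls near the 16.9% of all regions. Of these, 3076 and 4727 had peaks in 3 cetuximab lists and in 1 or 2 PBS lists, and 386 and 1498 the reverse. Lists of 1 treatment alone met the rule there, so the choice also favours its direction. With 2 lists of each treatment, 112 of 1478 were higher (7.58%) and 27 lower (1.83%). Over all SCC6-only regions tested the median log2 change was 0.45, where all regions tested had 0.11. The 3 treated libraries were above the 3 untreated ones in 6217 (29.7%; 23.1% of all) and below them in 1060 (5.06%; 17.2% of all). Scaling moved this balance: after median centring of the libraries, under which the median over all regions went to -0.07, 2466 regions were higher (11.8%; 11.8% of all) and 1102 lower (5.26%; 19.1% of all), and with quantile normalization 2955 (14.1%; 13.1% of all) and 991 (4.73%; 14.3% of all). Scaling by the signal summed over regions without a peak in any SCC6 list gave 10522 (50.1%, with 30.7% of all) and 457 (2.18%, with 6.06% of all). With the GC trend removed there were 2523 (12.0%, with 14.9% of all) and 653 (3.11%, with 8.79% of all). The share of higher calls was thus above, equal to or below that of all regions depending on the setting, while the share of lower calls stayed below it in these 5. In bulk libraries, a change in every cell and a change in the share of cells cannot be told apart.

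The narrow and wide classes differed in how their libraries behaved. Summed over the narrow class and set against the mean of the 3 SCC6 PBS libraries, the signal was 1.680, 1.454 and 1.021 in SCC6 cetuximab replicates 1 to 3 and 1.054, 0.955 and 0.990 in SCC6 PBS replicates 1 to 3. Replicate 3 of cetuximab thus lay within the range of the PBS libraries. In the wide class the values were 1.303, 1.277 and 1.258 with cetuximab and 0.994, 0.994 and 1.012 with PBS, with no overlap. The wide class also holds regions chosen through treated lists alone. In the regions that are not SCC6-only the values were 0.987 to 1.017 in all 6 libraries.

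**Figure D3:**
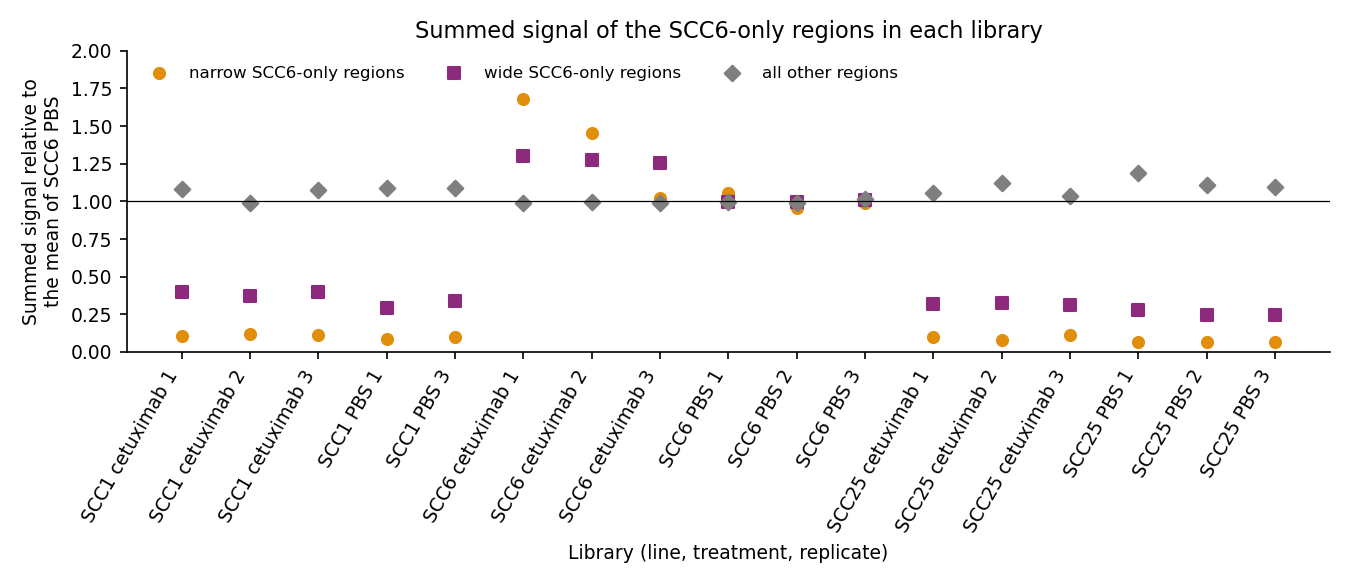
The signal summed over narrow SCC6-only regions, wide SCC6-only regions and all other regions (y axis, relative to the mean of the 3 SCC6 PBS libraries) in each of the 17 libraries (x axis). The narrow class stands at 1.680, 1.454 and 1.021 in the 3 SCC6 cetuximab libraries, the wide class at 1.258 to 1.303, and both are at most 0.400 in every SCC1 and SCC25 library.

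The calls also differed between the classes, beside 16.9% higher and 10.6% lower over all regions. In the narrow class 2696 of 15533 were higher (17.4%) and 151 lower (0.972%), and the log2 changes lay close together (quartiles 0.30 and 0.64). Without SCC6 cetuximab replicate 1 the narrow class had 409 higher, without replicate 2 it had 771, and without replicate 3 it had 6309. In the wide class 1906 of 5434 were higher (35.1%) and 571 lower (10.5%), with a wide spread of log2 changes (5th percentile -1.05, 95th percentile 2.74), and leaving out any 1 SCC6 library gave 1618 to 1875 higher and 435 to 583 lower. With peaks in lists of both treatments, 16.2% of the narrow class were higher and 0.862% lower, and 18.5% of the wide class were higher and 12.6% lower, with a median log2 change of 0.45 and 0.10. With the trend on GC content removed, the narrow class had 651 higher and the wide class 1872. The part of depth or GC content in the narrow regions' change was not tested further. A log2 change beyond 1 in either direction was present in 4.53% of narrow, 31.7% of wide and 17.2% of all regions.

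**Figure D4:**
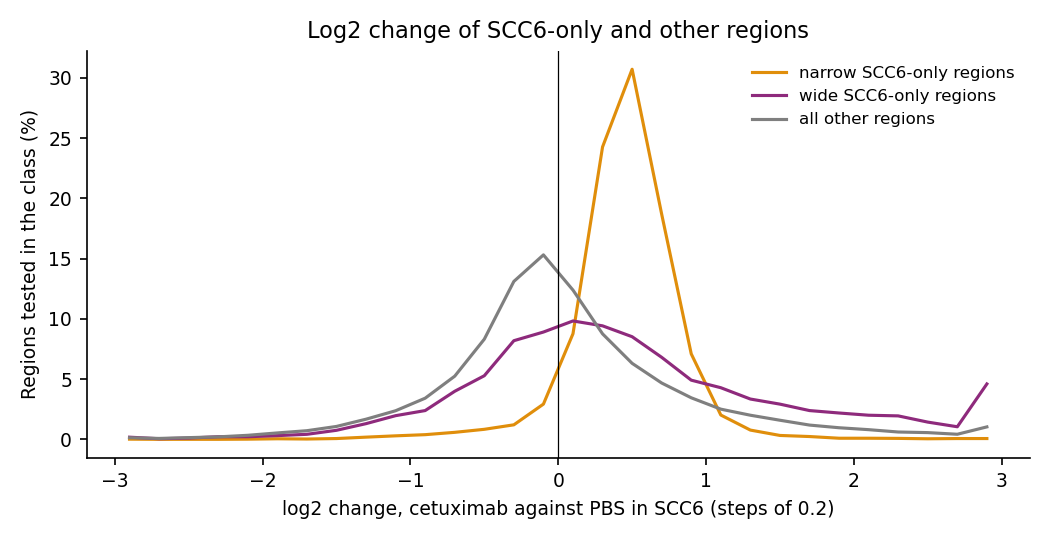
The distribution of the log2 change with cetuximab against PBS in SCC6 (x axis, in even steps, with changes past either end in the outer steps) for narrow SCC6-only regions, wide SCC6-only regions and all other regions tested (y axis, % of the class). Narrow regions crowd around a median of 0.46, while wide regions spread from a 5th percentile of -1.05 to a 95th percentile of 2.74.

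The share called also varied with GC content and with the number of lists, beside 16.9% higher and 10.6% lower over all regions tested. Below 30% GC, 949 of 5240 SCC6-only regions were higher (18.1%) and 0 lower by limma. Of the other regions with 3 SCC6 lists at that GC content, only 25 were tested, with 4 higher (16.0%) and 0 lower. At 50% GC and over, 358 of 2247 were higher (15.9%) and 324 lower (14.4%), and of the other regions with 3 SCC6 lists at that GC content 7.11% were higher and 14.4% lower. Regions with peaks in all 6 lists had 18.0% higher and 2.12% lower. Those with peaks in 3 lists had 34.0% higher, a share set by the regions with peaks in treated lists alone: with both treatments among the 3 lists it was 7.18%. Regions with an AP-1 site had 20.9% higher and 9.98% lower, and those without one 22.1% and 2.59%. The 745 tested regions within 1 kb of a start site had 87 higher (11.7%) and 61 lower (8.19%), and a median log2 change of 0.05.

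By adjusted p, the 6 leading regions that rose were all wide and distal. A region 51.8 kb from MMP13, the collagenase gene (chr11:102878273-102878774), had 611, 706 and 619.5 with cetuximab and 85.8, 79.6 and 96.8 with PBS. Its log2 change was 2.87 (SE 0.11, adjusted p = 6.2e-26, limma). In SCC1, at far lower levels and with no peak, it had 12.5 to 25.3 with cetuximab and 1.30 and 5.58 with PBS, also a called rise (log2 change 2.31, adjusted p = 0.0220, limma), and in SCC25 it had 6.49 to 11.1 over both treatments. One 212 kb from PGR (chr11:101212186-101212720), close to the region with the highest signal, had 812, 729 and 664 against 141, 135 and 169 (log2 change 2.30, SE 0.10, adjusted p = 2.4e-24, limma). In both, the lowest treated library was several times the highest untreated one. The second of these, near PGR, had peaks in 3 cetuximab and 2 PBS lists. The treated lists alone thus met the rule there, and its choice favoured a rise.

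On chromosome 8, a region 182 kb from LRATD2 (chr8:127386973-127388099) had 800.1, 729 and 733 against 146, 147 and 175 (log2 change 2.27, SE 0.09, adjusted p = 1.0e-24, limma). One in an intron of TRIM55, 9.82 kb from CRH, the corticotropin-releasing hormone gene (chr8:67080164-67080879), had 289, 291 and 312 against 49.5, 43.5 and 38.1 (log2 change 2.75, SE 0.15, adjusted p = 3.1e-19, limma). It holds an AP-1 site in its central 200 bases, the only one of these 6 that does.

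In an intron of CNTN5, a contactin of neurons (chr11:99844687-99845118), the signal was 303, 364 and 283 against 43.5, 54.2 and 60.9 (log2 change 2.56, SE 0.15, adjusted p = 1.5e-18, limma). This region had peaks in 3 cetuximab lists and 1 PBS list, so the treated lists alone met the rule and its choice favoured a rise. The largest change of the 6 was in the non-coding gene CASC15, 350.2 kb from PRL (chr6:21946547-21947051), with 169, 176 and 178 against 3.62, 8.70 and 10.9 (log2 change 4.43, SE 0.28). Its peaks were in the 3 cetuximab lists alone, so it was chosen through the libraries in which it is high, and the values are a description. SCC25 had 41.7 to 54.9 there with cetuximab and 8.48 to 26.7 with PBS, without overlap, although no SCC25 list had a peak. This rise in SCC25 was called (log2 change 1.77, adjusted p = 0.0284, limma).

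The 6 lower regions with the smallest adjusted p were also wide, with 49.4% to 58.5% GC. The one with the smallest adjusted p, in an intron of HIVEP3 and 30.4 kb from EDN2, the endothelin 2 gene (chr1:41980722-41981332), fell from 413, 444 and 519 with PBS to 179.8, 177 and 184 with cetuximab (log2 change -1.33, SE 0.10, adjusted p = 8.0e-15, limma). Its log2 fall was the smallest of the 6. A region at the start of SIGLEC15, a sialic acid-binding lectin gene (chr18:43408903-43409706), fell from 225, 193 and 204 to 73.7, 68.7 and 80.0 (log2 change -1.47, SE 0.15, adjusted p = 4.9e-11, limma). An exon of ANXA11, an annexin (chr10:81923480-81924023), fell from 149, 124 and 157 to 27.3, 36.2 and 28.8 (log2 change -2.19, SE 0.21). Treated and untreated libraries were apart in each, and at ANXA11 the treated SCC6 libraries lay below all 6 SCC25 libraries (36.6 to 57.7).

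In an intron of BRINP2, a gene of the nervous system (chr1:177188831-177189480), the values were 117, 107 and 95.7 with PBS and 19.2, 13.9 and 11.2 with cetuximab (log2 change -2.80, SE 0.26). The ANXA11 and BRINP2 regions had peaks in the 3 PBS lists alone, so both were chosen through the libraries in which they are high, and their values are a description. A region 704 kb from FSCB (chr14:44272253-44272764) had 179, 174 and 187 against 46.5, 31.6 and 37.4 (log2 change -2.21, SE 0.18, adjusted p = 2.2e-13, limma). The FSCB region had peaks in 3 PBS and 2 cetuximab lists, so the PBS lists alone met the rule and its choice favoured a fall. One in introns of DOCK1 and INSYN2A (chr10:128948347-128948731) had 121, 125 and 141 against 29.3, 31.6 and 32.4 (log2 change -2.02, SE 0.21, adjusted p = 8.4e-11, limma). The BRINP2 and INSYN2A regions hold an AP-1 site.

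**Figure D5:**
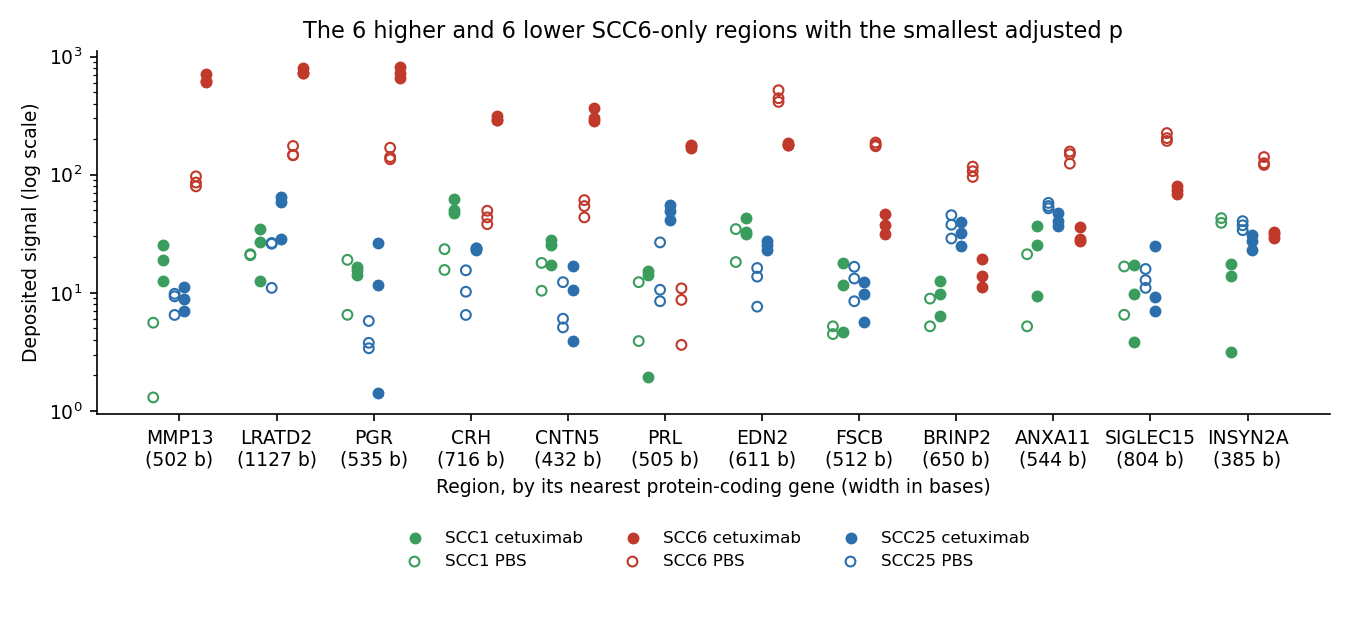
The deposited signal (y axis, log scale) in each library at the 6 higher and the 6 lower SCC6-only regions with the smallest adjusted p between cetuximab and PBS in SCC6, named by the nearest protein-coding gene with the width in bases. Filled points are cetuximab and open points PBS. In SCC6 the treated and untreated points are apart in all 12, from MMP13 (611 to 706 against 79.6 to 96.8) to INSYN2A (29.3 to 32.4 against 121 to 141).

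Near genes of the fixed lists, calls are to be read beside the shares of all SCC6-only regions tested (21.9% higher, 3.44% lower) and of all regions (16.9% and 10.6%), and they include regions chosen through 1 treatment's lists alone. Near matrix metalloproteinases 49 regions were tested, 12 higher and 11 lower. Near MMP20, an enzyme of enamel, the strongest (chr11:102473810-102474176) had 505, 486 and 499 with cetuximab and 271, 312 and 314 with PBS (log2 change 0.73, SE 0.09, adjusted p = 3.8e-09, limma). It had peaks in 3 cetuximab and 2 PBS lists, so its choice also favoured a rise. Near receptor tyrosine kinases 34 of 145 were higher and 1 lower. Near the receptors named under TFAP2A 3 of 15 were higher and 1 lower. The strongest region nearest IGF1R, the receptor of insulin-like growth factors, lay in its intron (chr15:99319894-99320351). This region had 76.8, 109 and 101 against 14.5, 36.8 and 32.6 (log2 change 1.82, SE 0.26). Its peaks were in the 3 cetuximab lists alone, so this difference follows from its choice. In an intron of EGFR itself a narrow region (chr7:55215179-55215375) had 157, 112 and 81.0 against 99.1, 74.3 and 80.5, groups that overlapped (adjusted p = 0.0866, limma). A narrow region in ERBB2 had 96.0, 111 and 60.2 against 73.7, 66.9 and 55.5 (adjusted p = 0.134, limma).

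Near TGF-beta and BMP genes 26 of 100 regions were higher and 4 lower. The strongest by INHBA, the activin subunit gene, 781 kb away (chr7:40958269-40958838), had 143, 173 and 180.2 with cetuximab and 58.0, 53.5 and 68.5 with PBS (log2 change 1.45, SE 0.17, adjusted p = 2.6e-09, limma). It had peaks in 3 cetuximab lists and 1 PBS list, so the treated lists alone met the rule and its choice favoured a rise. In SCC1, with no peak in any list, it had 76.2 to 119 with cetuximab and 22.1 and 36.8 with PBS. Near mesenchymal genes of EMT 18 of 79 were higher and 2 lower, among them one 12.4 kb from POSTN, a matrix protein, with 99.0, 77.1 and 67.4 against 36.2, 52.2 and 55.5 (log2 change 0.75, SE 0.22, adjusted p = 0.00777, limma).

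Near epithelial and squamous genes 16 of 52 were higher and 3 lower, in both directions among their factors. A region 37.1 kb from GRHL2, a factor of epithelial identity (chr8:102467150-102467550), had 127, 100.3 and 127 against 47.1, 40.8 and 40.2 (log2 change 1.44, SE 0.20). One 135 kb from KLF5, a factor of proliferating epithelium (chr13:73768416-73768732), had 24.2, 31.6 and 31.4 against 77.3, 65.6 and 50 (log2 change -1.11, SE 0.25, adjusted p = 5.9e-04, limma). The KLF5 region had peaks in 3 PBS and 2 cetuximab lists, so its choice favoured a fall. Near cytokines 5 of 21 were higher and 2 lower. There LIF, an interleukin 6 family ligand, and CCL20, a chemokine, stood on opposite sides: the region 5.69 kb from LIF had 57.6, 44.6 and 51.9 against 169, 146 and 169 (log2 change -1.64, SE 0.17), and that 2.20 kb from CCL20 had 116, 69.6 and 76.7 against 44.7, 24.8 and 25 (log2 change 1.46, SE 0.25). The GRHL2 and CCL20 regions had peaks in the 3 cetuximab lists alone and the LIF region in the 3 PBS lists alone, so these differences are a description.

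The ERK list had 20 of 89 regions higher and 5 lower, growth factor ligands 15 of 89 and 2, AP-1 and related genes 8 of 29 and 2, WNT genes 13 of 53 and 1, integrins and laminins 8 of 57 and 2, lineage factors 43 of 183 and 8, neuronal adhesion genes 120 of 587 and 10, cell cycle genes 10 of 29 and 0, and antigen presentation genes 2 of 6 and 0. The 0 lower calls are those of limma, and no list was tested against these shares. No HOX region of 7 was called in either direction by limma: at the start of HOXA7 (chr7:27195683-27196445) the signal was 146, 179 and 159 against 119.6, 128 and 145 (adjusted p = 0.0958). Near MYC, in the non-coding gene PVT1 (chr8:128807865-128808159), it was 104, 86.3 and 96.2 against 85.8, 51.5 and 47.9, apart by a small margin (log2 change 0.67, SE 0.20, adjusted p = 0.0110, limma). This call was lost in 6 of 19 other settings, with an adjusted p of up to 0.113. The MYC region had peaks in 3 cetuximab lists and 1 PBS list, so its choice also favoured a rise.

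The same regions were mostly too low to test in the other lines. In SCC1, 8356 (31.9%) passed the filter. limma called 287 higher (3.43%; 4.57% of all 86321 regions tested) and 45 lower (0.539%; 6.56% of all), with a median log2 change of 0.25 against -0.09 for all. SCC1 PBS had 2 libraries, so leaving out either leaves 1 in that group, and the calls of those fits are not read as a result. Without 1 of the 3 SCC1 cetuximab libraries there were 117 to 313 higher and 25 to 66 lower. Of the regions described above, those near INHBA (log2 change 1.73, adjusted p = 6.26e-06, limma), CRH (1.42, adjusted p = 0.00565), CFAP300 (1.51, adjusted p = 0.00506), GRHL2 (2.12, adjusted p = 0.00540) and MMP13 (2.31, adjusted p = 0.0220) were also called higher in SCC1. That in INSYN2A was called lower there (adjusted p = 0.00680, limma). In SCC25, 6439 (24.5%) passed. limma called 3 higher (0.0466%; 0.0405% of all) and 0 lower (0.275% of all), where 68 had an unadjusted p under 0.05 in the lower direction, and edgeR called 43 higher and 0 lower. Whether the change with cetuximab differed between lines was not tested at these regions.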

How the data were processed

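Per the study's methods and the submitters' processing notes, the authors trimmed reads with Trim Galore 0.5.0, aligned them to hg19 with Bowtie2 2.3.2, used Picard 2.18 to drop duplicates and mitochondrial reads and SAMtools 1.9 to drop unmapped and poor ones, and called peaks with MACS2. The lists are in its broad format, 1 a library. How the region table was built is not given in the sources used here. Its deposited signal equals whole reads, where 0 was replaced by 1, multiplied by a library's own step, from 0.331 to 1.95 (100.0% of values within 0.001 of a whole number). In the deposited peak lists, a fold enrichment over background and a −log10 q-value stand beside each peak, as MACS2 writes them; its cutoffs are not given in the sources used here.

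The table was read as hg19 and the lists as BED. For each line, limma 3.58.1 in R 4.3.3 was fitted across all regions to log2(signal + 1), two-sided, using its trend and robust options. Regions in the lowest 25% by mean signal were dropped, and p-values were adjusted by Benjamini-Hochberg with a threshold of 0.05. Fold changes are on that scale, which understates low regions. The code was tested on simulated data. edgeR 4.0.16 and DESeq2 1.42.0 on the recovered reads were alternatives. Genes and start sites came from GENCODE release 44 mapped to GRCh37, and 18 motifs were searched in the central 200 bases with Python 3.11.15. Nearest gene means the nearest protein-coding start site and says nothing of regulation. The SCC6-only regions and the gene lists were chosen with earlier results of these data known.

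Regions named in the text were taken from the 6 higher and 6 lower SCC6-only regions with the smallest adjusted p whose groups do not overlap, the 8 with the highest signal, the 10 promoters with the highest signal, the 6 genes and 3 windows of 1 Mb with the most SCC6-only regions, up to 4 genes from each of the 17 lists, each with its strongest region, and 3 regions on each side of the rule. Alternatives covered the scaling, the pseudocount, the filter, the GC trend, the test, the rule for peaks and each library left out.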

Additional observations from a re-analysis of the deposited data

Results flagged for a closer look

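At 5 of the named regions called in SCC6 and tested in another line, every treated library of that line lay on the other side of its own PBS mean than in SCC6. Regions too low to test in the other line were not counted, although some of them, such as that near TNFSF4, also met this condition. The differences between lines were not tested there, and limma called none of these changes in SCC1 or SCC25. The region near EDN2, in an intron of HIVEP3 (chr1:41980722-41981332), fell in SCC6 (log2 change -1.33), while the means with cetuximab and PBS were 35.7 and 26.4 in SCC1 (log2 difference 0.48, adjusted p = 0.519, limma, with groups that overlapped) and 25.2 and 12.5 in SCC25 (1.01, adjusted p = 0.241). The start of L3MBTL1 fell in SCC6 (-0.36), with 31.9 and 19.4 in SCC1 (0.73, adjusted p = 0.326, limma) and 28.4 and 16.3 in SCC25 (0.79, adjusted p = 0.383).

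In SCC1 alone of the other lines, the region with the highest signal, near PGR, had 5.53 with cetuximab and 9.95 with PBS (-0.74, adjusted p = 0.624, limma) against a rise of 0.97 in SCC6. The region near MYC had 43.2 and 59.6 (-0.47, adjusted p = 0.419, limma) against 0.67, and the strongest region near MAF, a bZIP factor gene, had 2.64 and 5.21 (-0.74, adjusted p = 0.655, limma) against 0.75. The mean levels of SCC1 and SCC25 were below those of SCC6 in these regions, and neither line had a peak. Near MYC, however, the PBS mean of SCC1 (59.6) was close to that of SCC6 (61.7). The SCC1 signals near MAF (1.27 to 7.82) and PGR (3.13 to 13.4) stood for few reads, at 1.12 to 1.95 a read.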

How the results depend on the processing

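The SCC6-only regions numbered 14689 with 5 lists required, 8464 with all 6 and 11972 with a −log10 q of at least 5, and 20369 to 25323 when each SCC6 list was left out. Their share within 1 kb of a start site (3.18%) was 6.58% within 3 kb, 8.49% with the start sites of all genes, 3.87%, 2.81%, 2.47% and 2.75% with 2, 4, 5 and 6 lists, 4.65% with 50% overlap and 6.15% with the stricter q. The AP-1 share (10.4%) was 5.9% in the central 100 bases, 11.8% in whole regions and 11.6%, 9.44%, 9.1% and 8.65% with 2, 4, 5 and 6 lists.

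In SCC6 the 4602 higher and 722 lower became 2466 and 1102 with median centring, 10522 and 457 with scaling by the signal in regions without an SCC6 peak, 1105 and 195 with all lines in 1 fit (14333 tested), 2173 and 444 at an adjusted p under 0.01. The higher ones were 2955 with quantile normalization, 2523 with the GC trend removed, 2153 with DESeq2 and 3755 with edgeR. By rule, 2947 were higher with 4 lists, 2166 higher and 291 lower with 5, 1260 and 148 with 6, 1807 and 470 with the stricter q, and 1086 lower with 2 lists. Regions wider than 201 bases, a choice made after seeing the data, had 1906 higher. Regions with lists of both treatments, chosen likewise, had 3137 higher and 647 lower. Leaving out regions with no more than 5 reads, also chosen then, could not change the counts. The filter on mean signal had already removed them, with 20967 tested either way. Leaving out each library gave 2079 (without SCC6 cetuximab replicate 1) to 8184 (without SCC6 cetuximab replicate 3) higher and 537 to 736 lower; without SCC6 cetuximab replicate 2 it was 2389 and without SCC6 PBS replicate 2 it was 3055 higher. With the replicate block, 5118 were higher and 752 lower in SCC6, and 338 higher and 62 lower in SCC1; same-numbered treated and untreated SCC6 libraries did not deviate together (correlations of 0.038, -0.016 and 0.006), so the numbers were not taken to pair them.

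In SCC1 the 287 higher and 45 lower became 163 and 12 with DESeq2, 177 and 16 with the GC trend removed, 581 and 188 with all lines in 1 fit, 495 and 24 with median centring and 122 and 12 at an adjusted p under 0.01. The lower ones were 20 with the lowest 50% left out, 27 with no filter and 29 with quantile normalization. Without 1 of the SCC1 cetuximab libraries there were 117 to 313 higher and 25 to 66 lower. A fit without an SCC1 PBS library has 1 library in that group and cannot measure its spread. The low ends of the ranges over all libraries, given next, come from such a fit and are not read as a result. Leaving out each library gave 64 to 313 higher and 1 to 66 lower. In SCC25 the 3 higher became 11 with all lines in 1 fit, 43 with edgeR, 1 with median centring and with a pseudocount of 0.5, 22 with no filter, 5 with a pseudocount of 5, 10 with the replicate block, 29 with scaling by the signal in regions without an SCC25 peak (40 lower) and 0 at an adjusted p under 0.01, and 0 to 4 higher and 0 to 1 lower without 1 library.

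Of 47 named regions called in SCC6, 20 kept their call in all 19 settings and 27 lost it in some. None changed sign. Apart from the settings' own construction, the causes were not tested. In the SCC1 and SCC25 libraries the regions, chosen for having no peak there, held a median of 1.00 to 3.00 reads.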
